A study of Mus musculus with 12 samples.

Results

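Lin28b and a set of genes known from fetal and early postnatal growth were followed in libraries labelled as bone endothelial cells (BECs) of young and old mice. The 7 genes were Lin28b, Igf2bp1, Igf2bp2, Igf2bp3, Hmga2, Hmga1 and Arid3a. They were chosen with earlier results of these data known, and all 7 were found among the 37620 genes of the count table. The cells were labelled as freshly isolated from the tibia of c57/Bl6 mice, an inbred laboratory strain, and were purified by endomucin, a surface protein of bone capillaries. No allele or treatment was given, and the 4 groups were females at 2 weeks, males at 2 weeks, females at 65 weeks and males at 65 weeks, with 3 RNA-seq libraries each. The labels did not say whether a library came from 1 mouse or a pool, so the p-values measure the spread between these libraries, which may be technical.

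LIN28B is an RNA-binding protein that blocks the maturation of let-7, a family of microRNAs. When let-7 is mature it represses a set of growth transcripts, among which are those of LIN28B itself, the IGF2BP proteins and the chromatin protein HMGA2, so these genes are usually active together in fetal tissue and silenced as the animal matures. In blood-forming cells LIN28B is known as a switch that keeps progenitors in their fetal mode, and ARID3A is a transcription factor used by fetal-type B cells.

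The shared sequence behind this grouping is the let-7 seed, bases 2 to 8 of the mature microRNA, which pairs with its targets. The RefSeq table (GRCm38.p6) held 11 mature entries of the mouse let-7 and miR-98 family, and all 11 had the same seed. The 3 entries given here, with the seed in capitals, lie at chr13:48538239-48538260 on the minus strand (let-7a), chr9:106178846-106178867 on the plus strand (let-7g) and chrX:151913229-151913250 on the plus strand (miR-98).
mmu-let-7a-5p: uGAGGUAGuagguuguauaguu
mmu-let-7g-5p: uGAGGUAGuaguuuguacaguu
mmu-miR-98-5p: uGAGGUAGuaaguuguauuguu

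The complement of the seed, CTACCTC, was searched on the mRNA strand of the longest annotated 3′ UTR of each gene (GENCODE M39, GRCm39), and no other motif was searched. At least 1 match was present in the 3′ UTR of 11.9% of 20968 protein-coding genes, at least 2 in 1.6% and at least 4 in 0.1%. Each of the 7 genes had a match. Lin28b had 4 in 4515 bases, Igf2bp1 had 4 in 6337 bases and Hmga2 had 4 in 3021 bases. Among UTRs of 80% to 125% of the same length, 4 or more matches were present in 0.2%, 0.3% and 0.1%, respectively. Arid3a had 2 matches in 3082 bases, against 2.5% of UTRs of similar length with as many, while Igf2bp2, Igf2bp3 and Hmga1 had 1 each, against 12.5%, 14% and 8.4%. A match describes the letters of the annotated transcript only. Mature let-7 was not measured in these libraries.

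The match nearest to the stop codon of each gene is shown with its flanks, 5′ to 3′ on the mRNA strand, with the 7 matching bases in capitals, so that the members can be compared at the site they share. The windows lie at chr10:45257116-45257140 (minus strand, Lin28b), chr11:95852602-95852626 (minus, Igf2bp1), chr16:21878221-21878245 (minus, Igf2bp2), chr6:49063719-49063743 (minus, Igf2bp3), chr10:120200127-120200151 (minus, Hmga2), chr17:27782251-27782275 (plus, Hmga1) and chr10:79789729-79789753 (plus, Arid3a) of GRCm39.
Lin28b: acccgggcgggaagtCTACCTCatg
Igf2bp1: gctgtgcgaagtaaaCTACCTCaag
Igf2bp2: acacacaaataaaagCTACCTCagg
Igf2bp3: tgcatttttactcaaCTACCTCagg
Hmga2: gccgacattcaatttCTACCTCagc
Hmga1: tcctctgttcacaaaCTACCTCtgg
Arid3a: aaggcaagtttctttCTACCTCagg
The match was followed by A, a base that in general favours repression by a microRNA, in 6 of the 7 windows, the exception being Hmga1. This holds for the match nearest to the stop codon only. None of the further matches of Lin28b, Hmga2 and Arid3a was followed by A, while those of Igf2bp1 were, except the last. How often A follows a match in other UTRs was not counted.

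Total counts per library ran from 26044743 to 44569600, and the 65-week libraries were the shallower ones in both sexes. The label of endothelial cells was compared with 16 endothelial markers. Their summed level was 3180 to 5770 CPM (counts scaled to a common library total) at 2 weeks and 234 to 338 CPM at 65 weeks, and none of the 16 was at 0 in any group. Emcn, the gene of the protein used for purification, went from 147 ± 32.8 to 5.0 ± 2.1 CPM in females and in males from 197 ± 38.0 to 5.64 ± 0.971 CPM (SD, n = 3 libraries each, as throughout). Erythroid markers were present at 31000 to 58600 CPM in all 12 libraries. At 65 weeks neutrophil and plasma cell markers each summed to 12300 to 26900 CPM. At 2 weeks neutrophil markers summed to 5490 to 7590 CPM and osteoblast markers to 7090 to 10400 CPM. The label of purified endothelial cells was thus not borne out by these markers at 65 weeks. At 2 weeks endothelial markers were high, but markers of other cell types were present as well. BECs is therefore used as the label only. Male 65-week replicate 3 stood apart: without it, 830 genes in place of 6 were called between sexes at 65 weeks, and 750 in place of 1 in the interaction of sex and age. Where a call or ratio of the 7 genes turned on this library, that is stated beside it.

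Ages were compared within each sex, 65 weeks over 2 weeks, by the edgeR quasi-likelihood test on all genes that passed a filter on low counts, with Benjamini-Hochberg adjustment and a threshold of 0.05. Of the 7 genes, 6 passed the filter and Lin28b did not. In females 5 of the 6 were called lower and 1 higher at 65 weeks, where 29.5% of the 15120 genes tested were called lower and 30.2% higher. In males 4 were called lower, 1 higher and 1 was not called, where 28.5% of 14959 genes were called lower and 27.0% higher. Igf2bp1 and Igf2bp3 passed the filter only through the 2-week libraries and so had to differ. Nothing is read from these counts, and no p is given for these genes with age. In males Hmga2 also needed the 2-week libraries to pass, so no p is given for it there. Since a large share of the genes was called in each direction, a change with age was common in these libraries. Fold changes in the tests are relative to a TMM scaling, under which the median log2 fold change of all genes was 0.006 in females and 0.008 in males. With library totals alone it was -0.13 and -0.107, and each call in the age comparisons kept its direction.

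**Figure D1:**
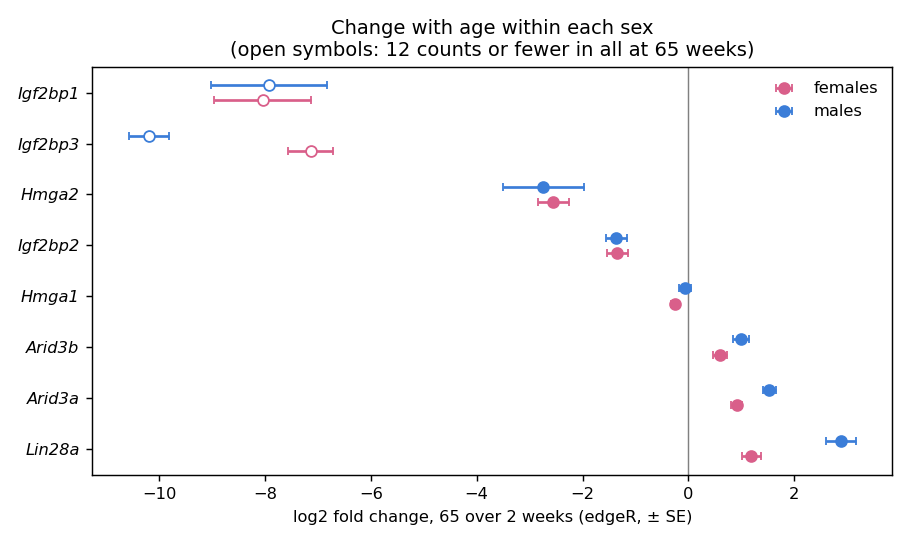
Log2 fold change (horizontal axis, edgeR fit, bars 1 standard error either side) at 65 weeks over 2 weeks of the 6 genes tested and of Lin28a and Arid3b, in females and in males. The open symbols of Igf2bp1 and Igf2bp3 lie against groups at or near 0 counts, so their fitted values are no bounds.

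Lin28b itself was close to the limit of detection. Its counts were 2, 10 and 2 in the 3 female 2-week libraries, 9, 3 and 10 in the male 2-week libraries, 0 in each of the 3 female 65-week libraries and 0, 0 and 2 in the male 65-week libraries. In CPM these were 0.0545, 0.286 and 0.0522 in young females and 0.202, 0.0718 and 0.275 in young males. Every 2-week library held at least 2 counts, and of the 6 libraries at 65 weeks only male replicate 3 held any. A floor of 3 counts, about the upper limit that a count of 0 allows, reflects counting error alone, as the reads carry no molecular identifiers. Several of the 2-week libraries were at or under it.

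Over the 3 libraries of each group, Lin28b had 14 and 22 counts at 2 weeks in females and males and 0 and 2 at 65 weeks. The ratio of depth-scaled counts in males, 2 weeks over 65 weeks, was 7.21 (exact 95% interval 1.77 to 63.2, counting error only). Both old male counts came from replicate 3, and without it the old male count is 0 and no ratio can be given. In females the 14 counts stood against 0, and no fold is given. With the filter removed, the edgeR test gave an adjusted p of 0.0547 in females and 0.127 in males, so the difference in Lin28b counts did not pass the threshold in either sex. A loss of Lin28b with age was thus not resolved at this depth, although the 2-week transcripts were read in all 6 libraries.

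The paralogue Lin28a, which also binds let-7 precursors and is best known from embryonic stem cells, rose with age. It was measured at 5.45, 4.63 and 5.95 CPM in young females and at 2.47, 2.82 and 3.19 CPM in young males. At 65 weeks the female libraries held 11.5, 12.6 and 9.21 CPM and the male libraries 19.9, 24.8 and 12.8 CPM. In both sexes every old library was above every young one. Lin28a rose by 1.19 (log2) in females (SE 0.181, edgeR adjusted p = 0.000742) and by 2.89 in males (SE 0.281, adjusted p = 9.51e-05). Per kilobase of exon, Lin28a made up 98.9% of the summed Lin28a and Lin28b level in young females, 97.4% in young males and 100% and 99.9% in old females and males. The neutrophil marker list had the same order of groups as Lin28a, with a summed level of 5490 to 5960 CPM in young males, 6540 to 7590 in young females, 12300 to 16500 in old females and 18300 to 26900 in old males. Its part in the Lin28a values was not tested.

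**Figure D2:**
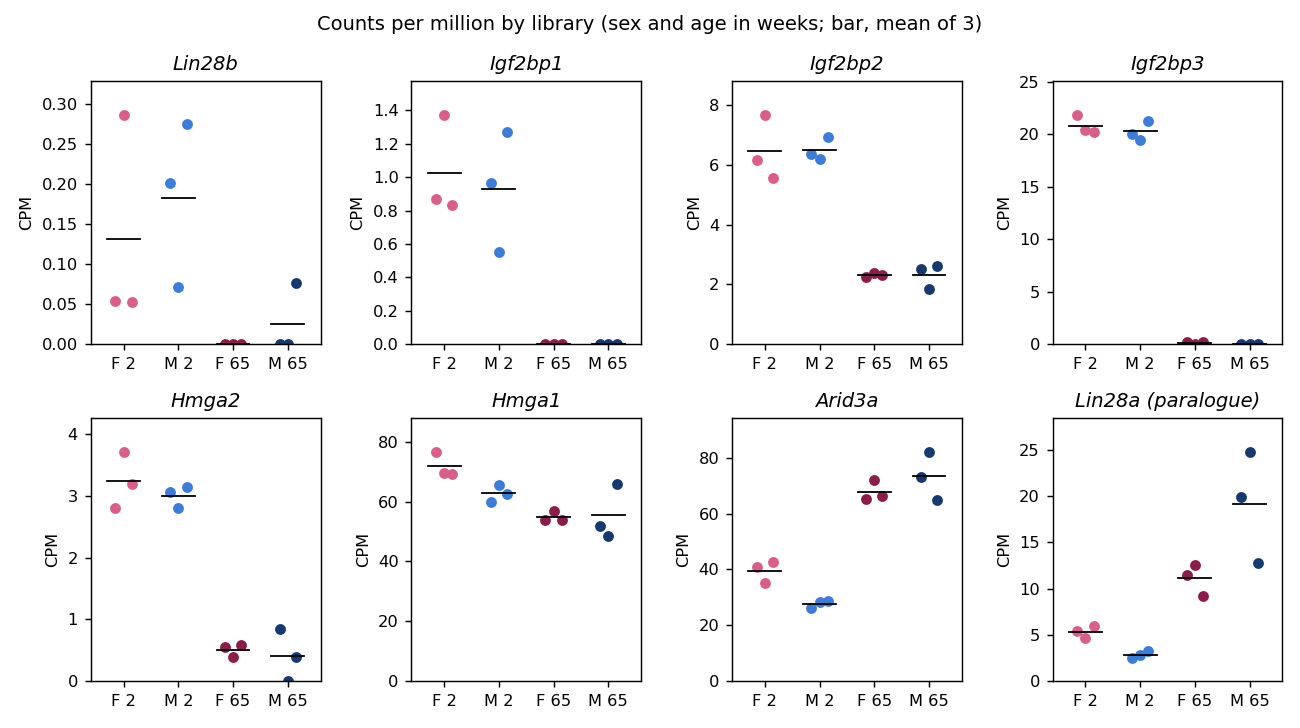
Level in CPM (vertical axes from 0) of the 7 genes and of Lin28a in each of the 12 libraries, with 1 point per library, by sex (F, M) and age in weeks (2, 65), and a bar at the mean of 3. Igf2bp1, Igf2bp2, Igf2bp3 and Hmga2 sit lower in the old libraries, Arid3a sits higher, and Lin28b is near 0 throughout.

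The IGF2BP proteins bind growth transcripts, such as that of the growth factor Igf2, and affect their stability, transport and translation. Igf2bp3 had the highest level of the family in young libraries, at 21.8, 20.4 and 20.2 CPM in females and 20.0, 19.5 and 21.3 CPM in males. At 65 weeks its counts were 7, 0 and 5 in females and 0, 0 and 1 in males, against 715 to 890 counts in each young library. The 2 ages did not overlap. The depth-scaled count ratio, 2 over 65 weeks, was 160 in females (exact 95% interval 91.7 to 311, counting error only). In males it was 1630 (291 to 64200) and rests on 1 count at 65 weeks, in male replicate 3. Without that library the old male count is 0, and no ratio can be given. Igf2bp3 shares 1685 exon bases with Malsu1 on the opposite strand, and the use of strand in counting is not stated. Malsu1 was at 7.91 ± 1.24 CPM in old females and 10.3 ± 0.754 CPM in old males, where Igf2bp3 was near 0.

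Igf2bp1, the family member best known from fetal tissue, was a low transcript in young libraries. It had 32, 48 and 32 counts in young females and 43, 23 and 46 in young males, or 1.03 ± 0.299 and 0.927 ± 0.359 CPM. All 6 libraries at 65 weeks had 0 counts. Against a floor of 3 counts per library, Igf2bp1 was at least 10.5-fold lower in old females and at least 8.28-fold lower in old males. It was thus not detected at 65 weeks, and a level under the floor cannot be seen at this depth.

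Igf2bp2, the member that many adult tissues keep, fell but remained in every library. Young females held 6.15, 7.65 and 5.56 CPM and young males 6.37, 6.18 and 6.91 CPM. Old females held 2.24, 2.38 and 2.32 CPM and old males 2.53, 1.85 and 2.61 CPM, from 50 to 81 counts per library. Each old library was below each young one. Igf2bp2 fell by 1.34 (log2) in females (SE 0.19, edgeR adjusted p = 0.000499) and by 1.36 in males (SE 0.205, adjusted p = 0.000979), or 2.79-fold and 2.78-fold in mean CPM. Without male 65-week replicate 3, Igf2bp2 was called lower in males as well (edgeR adjusted p = 0.00086).

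The unequal falls changed the make-up of the family. On a per-length scale (CPM per kilobase of exon) the 3 genes summed to 3.29 ± 0.177 in young females and 3.22 ± 0.188 in young males, and to 0.303 ± 0.00671 and 0.291 ± 0.0532 in old females and males. Igf2bp3 made up 72.6 ± 3.75% of this sum in young females and 72.2 ± 0.913% in young males. At 65 weeks its share was 5.12 ± 4.63% in females and 0.445 ± 0.771% in males, where it came from replicate 3 alone. Igf2bp2 went from 24.4% and 25.1% at 2 weeks to 94.9% and 99.6% at 65 weeks in females and males, so that it was nearly the whole of what remained. Igf2bp1 was 3.02% and 2.77% of the young level. The larger Igf2bp2 share in old libraries was a share of a smaller sum, since Igf2bp2 itself fell.

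**Figure D3:**
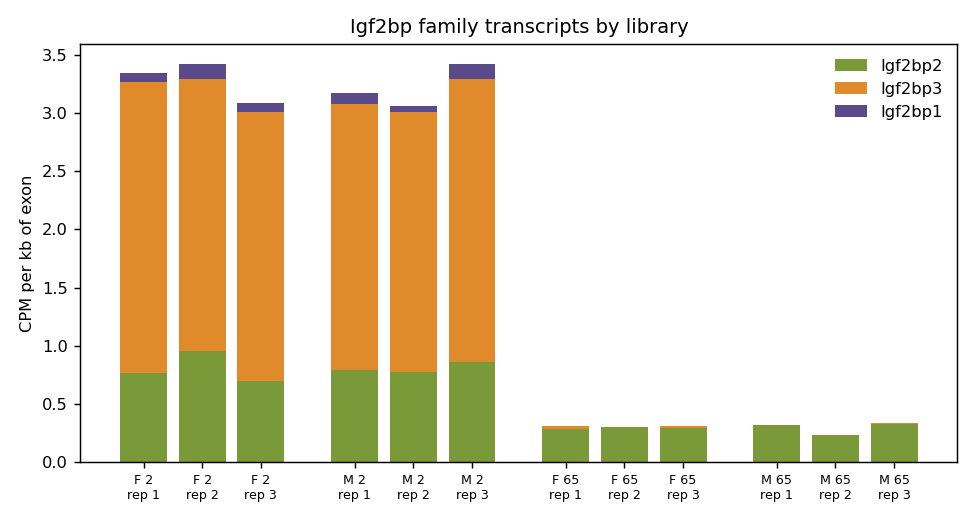
Stacked levels of Igf2bp1, Igf2bp2 and Igf2bp3 in each of the 12 libraries, as CPM per kilobase of exon. Igf2bp3 is the larger part of the family in all 6 young libraries and Igf2bp2 in all 6 old ones.

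HMGA proteins bind the minor groove of AT-rich DNA and alter chromatin, and HMGA2 is the fetal form that let-7 is known to repress. Hmga2 was measured at 2.8, 3.71 and 3.19 CPM in young females and 3.07, 2.8 and 3.14 CPM in young males. The old female libraries held 0.551, 0.381 and 0.58 CPM, from 13 to 17 counts. The old male libraries were uneven, with 23, 0 and 10 counts, or 0.842, 0 and 0.384 CPM. The ages did not overlap in either sex. Hmga2 fell by 2.55 (log2) in females (SE 0.291, edgeR adjusted p = 0.000157), a 6.42-fold lower mean. In males the fitted fall was 2.74 (SE 0.764). There Hmga2 passed the filter only through the 2-week libraries, so no p is given and its call is not read. That call was also lost when male 2-week replicate 1, 2 or 3 was left out (log2 fold change -2.73, -2.79 and -2.72). Without male 65-week replicate 3 the log2 fold change was -2.68 (SE 0.797).

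Hmga1, the form expressed widely in dividing cells, changed little. Its levels were 76.6, 69.6 and 69.3 CPM in young females and 53.7, 56.8 and 53.7 CPM in old females. The female ages did not overlap, and Hmga1 fell by 0.26 in log2 terms (SE 0.0787, edgeR adjusted p = 0.0219). The call did not hold without female 2-week replicate 1 (log2 fold change -0.26, adjusted p = 0.0527) or female 65-week replicate 1 or 3 (-0.24 each, adjusted p = 0.0602 and 0.0598). In males the levels were 60.0, 65.7 and 62.6 CPM at 2 weeks and 51.8, 48.6 and 66.0 CPM at 65 weeks. The male ages overlapped, because replicate 3 at 65 weeks was the highest of the 6, and Hmga1 was not called (log2 fold change -0.07, SE 0.113, edgeR adjusted p = 0.639). Without that library the log2 fold change was -0.20 (SE 0.0989, adjusted p = 0.119). Per kilobase of exon, Hmga2 made up 2.37% and 2.5% of the summed Hmga1 and Hmga2 level in young females and males and 0.493% and 0.391% in old ones.

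The copy Hmga1b on chromosome 11, whose seed-match window has the same letters as that of Hmga1, had 0 counts in all 12 libraries. How reads that map to both places were counted is not stated, so Hmga1 may include reads of its copy. Hmga1 also shares 671 exon bases with Smim29 on the opposite strand, which had 10.1 and 14.5 CPM in young and old females. Hmga2 shares 182 bases with 1700006J14Rik, at 3.43 to 5.29 CPM in the group means.

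Arid3a moved the other way. ARID3A binds AT-rich DNA and is known for the activation of the immunoglobulin heavy chain gene in B cells. Its level was 41.0, 35.0 and 42.6 CPM in young females and 26.1, 28.2 and 28.5 CPM in young males. Old females held 65.2, 71.9 and 66.5 CPM and old males 73.1, 82.1 and 64.8 CPM. In both sexes every old library was above every young one. Arid3a rose by 0.91 (log2) in females (SE 0.106, edgeR adjusted p = 0.00017) and by 1.53 in males (SE 0.126, adjusted p = 4.14e-05). Without male 65-week replicate 3 the male value was 1.61 (SE 0.0943, adjusted p = 6.27e-06).

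Its paralogue Arid3b also rose, from 9.21 ± 0.859 to 12.7 ± 1.06 CPM in females (log2 fold change 0.60, SE 0.136, edgeR adjusted p = 0.00567) and from 7.48 ± 0.456 to 13.8 ± 2.6 CPM in males (0.99, SE 0.156, adjusted p = 0.00121). Arid3c had 2 counts, both in male 65-week replicate 2.

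Libraries of the 2 ages did not overlap in 41.6% of the genes tested in females with the old libraries lower and in 27.6% with the old libraries higher, and in 39.4% and 26.0% in males. Lack of overlap between the ages was therefore common, and it marks none of the 7 genes off from the rest.

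Levels of different genes were compared per kilobase of exon. In young females the order was Hmga1 (15.6 CPM per kilobase), Arid3a (6.9), Igf2bp3 (2.39), Igf2bp2 (0.804), Hmga2 (0.375), Igf2bp1 (0.0998) and Lin28b (0.0136). In young males the order was the same, from Hmga1 at 13.6 to Lin28b at 0.019. At 65 weeks Hmga1 and Arid3a were at 11.9 and 11.8 in females and 12 and 12.8 in males, so that these neighbours differed by less than their spread. Next came Igf2bp2 at 0.288 in females and 0.29 in males and Hmga2 at 0.0585 and 0.0474. Igf2bp3 was at 0.0157 and 0.00147, and Igf2bp1 and Lin28b were at or near 0. Of the neighbours at 65 weeks, Hmga2 and Igf2bp3 were not apart in males, where 1 library held 0 counts of both. The summed CPM of the 7 genes stayed in a narrow range, 138 to 149 and 117 to 124 in young females and males and 122 to 131 and 128 to 134 in old ones, since Hmga1 and Arid3a carried most of it.

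The RNA-seq part of the study compared males with females at each age by DESeq2. It reported more genes that differed, at 2 weeks and at 65 weeks, than edgeR called here. None of the 7 genes was called between sexes at 2 weeks by edgeR, of 6 tested, where 0.0332% of 15081 genes were called (5 genes, with 2683 below 0.05 before adjustment). At 65 weeks 4 of the 7 passed the filter and none was called, where 0.042% of 14287 genes were called (6 genes, with 1479 below 0.05 before adjustment). Neither was any called in the interaction of sex and age, where 0.00635% of 15747 genes were called (1 gene, with 1880 below 0.05 before adjustment). For Igf2bp1, at 0 counts in every old library, the interaction could not be estimated (SE 296). Before adjustment, Hmga1 and Arid3a were below 0.05 at 2 weeks, none of the 4 at 65 weeks, and Igf2bp3 and Arid3a in the interaction.

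Arid3a was nearest to a difference between sexes. All 3 young male libraries, at 26.1 to 28.5 CPM, were below all 3 young female libraries, at 35.0 to 42.6 CPM. This lack of overlap was seen in 21.7% of the genes tested at 2 weeks, and in 15.5% at 65 weeks. The male level was lower by a log2 fold change of -0.54 (SE 0.104), which edgeR did not call (adjusted p = 0.213) and DESeq2 did (adjusted p = 0.00318). At 65 weeks the sexes overlapped, with a log2 fold change of 0.10 (edgeR adjusted p = 0.844), or 0.21 without male replicate 3 (SE 0.0914, adjusted p = 0.225). The rise with age was larger in males by 0.62 in log2 terms (SE 0.158), which edgeR did not call (adjusted p = 0.164). It was called without male 65-week replicate 3 (0.75, SE 0.144, edgeR adjusted p = 0.0221) and by DESeq2 (adjusted p = 0.0195).

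Lin28a differed in the same directions. Young males were lower than young females by a log2 fold change of -0.94 (SE 0.16), which edgeR did not call (adjusted p = 0.213) and DESeq2 did (adjusted p = 0.000355). Old males were higher by 0.78 (SE 0.262, edgeR adjusted p = 0.348), and by 1.02 without male replicate 3 (SE 0.172, adjusted p = 0.0185). The interaction was 1.70 (SE 0.337, edgeR adjusted p = 0.119), or 1.96 without that replicate (SE 0.25, adjusted p = 0.00738) and 1.71 by DESeq2 (adjusted p = 0.000828). Male 65-week replicate 3 had the lowest level of Lin28a and of Arid3a among the old males. The neutrophil markers crossed in the same direction, with a median log2 difference, male over female, of -0.56 over 13 genes at 2 weeks and 0.76 at 65 weeks, and with no gene of the list called. Whether this moved Lin28a or Arid3a was not tested.

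The IGF2BP genes were not called between young males and females, with log2 differences, male over female, of -0.17 for Igf2bp1 (edgeR adjusted p = 0.785), -0.01 for Igf2bp2 (0.977) and -0.06 for Igf2bp3 (0.688). Hmga2 differed by -0.12 (edgeR adjusted p = 0.63) and Hmga1 by -0.21 (0.252). For Igf2bp2 these small values changed sign with the scaling. Igf2bp3 at 65 weeks had 12 counts over the old females and 1 over the old males, a depth-scaled ratio of 10.4 (exact 95% interval 1.54 to 446, counting error only), and was too low to be tested there. The 1 male count was in replicate 3, so that without it there is no ratio. The interaction of -3.05 (SE 1.18, edgeR adjusted p = 0.331) rests on those counts and was -5.23 without male 65-week replicate 3 (SE 1.88, adjusted p = 0.128). Lin28b had 22 counts in young males and 14 in young females, a ratio of 1.41 with an exact 95% interval of 0.689 to 2.98, which holds 1.

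Other genes of the pathway were described from lists of known members. The counts called, in these lists and in the cell type lists further on, stand beside shares over all genes tested. Those were 29.5% called lower and 30.2% higher in females, and 28.5% and 27.0% in males. Of 17 genes that mature, tail or degrade let-7 and its precursors, 3 were called lower and 5 higher at 65 weeks in females and 2 lower and 4 higher in males, with median log2 fold changes of 0.00 and 0.03. Tut4 and Tut7 encode the enzymes that add uridines to the let-7 precursor when LIN28 is bound. Tut7 rose by 0.81 (log2) in females (SE 0.149, edgeR adjusted p = 0.002) and by 1.07 in males (SE 0.138, adjusted p = 0.000426), and Tut4 by 0.65 and 0.60 (adjusted p = 0.000141 and 0.0153). Dis3l2, the nuclease that degrades the uridylated precursor, fell by 0.60 in females (SE 0.0935, edgeR adjusted p = 0.000856) and by 0.49 in males (SE 0.107, adjusted p = 0.00575). Msi1, an RNA-binding protein that acts with LIN28, was at 3.65 ± 0.665 and 3.75 ± 0.286 CPM in young females and males and at 0.195 ± 0.191 and 0.161 ± 0.0534 CPM in old ones, and it passed the filter only through the young libraries. Ago2, which carries mature microRNAs, rose by 0.55 and 0.71 in log2 terms (edgeR adjusted p = 0.00916 and 0.0119).

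The mature let-7 molecules are too short for these libraries, but some are cut from long host transcripts. Mir100hg, the host of let-7a-2 in a cluster with miR-100, was at 0.813 ± 0.328 and 0.493 ± 0.0523 CPM in young females and males and at 0.15 ± 0.0405 and 0.0128 ± 0.0222 CPM in old ones, and it too passed the filter only through the young libraries. Huwe1, whose introns hold let-7f-2 and miR-98, was not called in either sex, at 207 ± 12.5 and 190 ± 8.57 CPM in young and old females and 161 ± 16.8 and 160 ± 20.5 CPM in young and old males. Mir99ahg was too low to be tested.

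Other known let-7 targets were called in both directions, as were the genes tested at large. Of 25, 22 were tested in females, with 4 called lower and 9 higher, and 23 in males, with 7 lower and 9 higher. The median log2 fold change was 0.13 in females and 0.32 in males. Thbs1, an inhibitor of vessel growth, fell in females from 633 ± 31.4 to 104 ± 7.81 CPM and in males from 762 ± 192 to 113 ± 22.7 CPM (edgeR adjusted p = 1.76e-06 and 6.15e-05). The cyclin gene Ccnd1 fell by 1.27 and 1.77 in log2 terms (edgeR adjusted p = 0.0017 and 0.000832). Fas, a death receptor, rose in females from 5.06 ± 0.143 to 12.5 ± 2.25 CPM and in males from 4.97 ± 0.379 to 13.7 ± 3.08 CPM (edgeR adjusted p = 0.000189 and 0.00021). Myc was not called in either sex, and Trim71, which is itself a target of let-7, had 0 counts in every library.

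**Figure D4:**
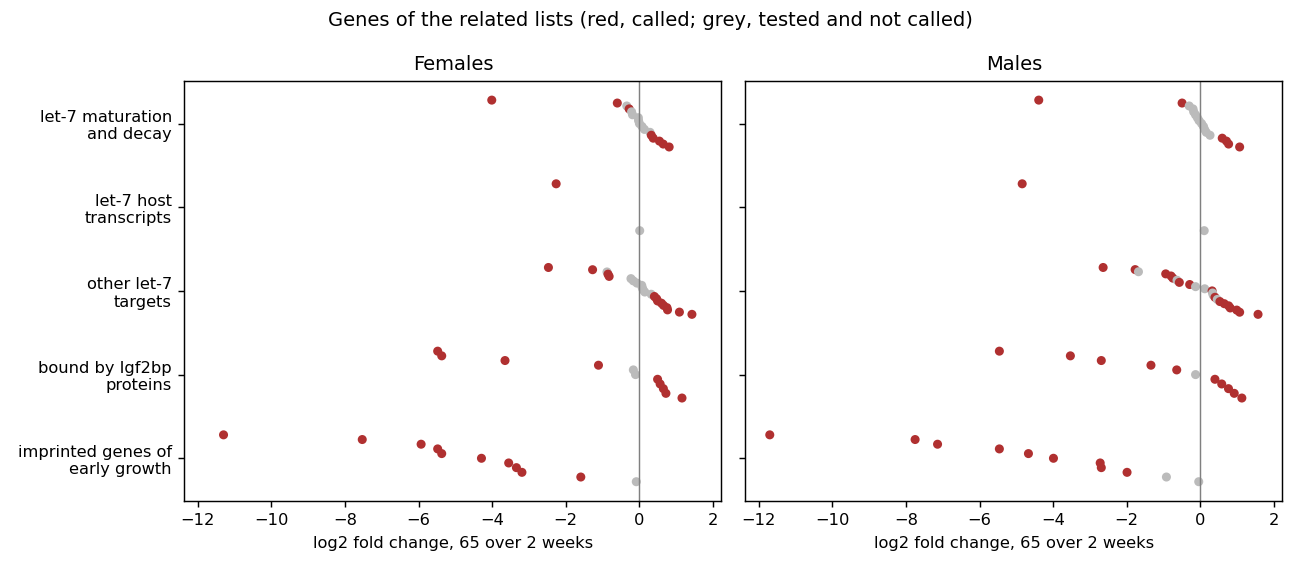
Log2 fold change at 65 over 2 weeks of the tested genes of each related list, in females and in males, with 1 point per gene, red where called and grey where not. The imprinted growth genes lie lower at 65 weeks, whereas the let-7 maturation genes and other let-7 targets lie on both sides of 0.

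Of 12 transcripts known to be bound by IGF2BP proteins, 11 were tested, with 4 called lower and 5 higher in females and 5 and 5 in males, and median log2 fold changes of -0.10 and -0.13. By the mean of both sexes, the largest falls among those called in both were of H19, a long non-coding RNA next to Igf2, and of Igf2, although in males the laminin gene Lamb2 fell by more than Igf2 (log2 fold change -3.53, edgeR adjusted p = 4.43e-06, and -3.65 in females). H19 went in females from 21.4 ± 4.1 to 0.429 ± 0.104 CPM (edgeR adjusted p = 1.95e-06) and in males from 21.6 ± 0.896 to 0.442 ± 0.393 CPM. In males H19 passed the filter only through the 2-week libraries, so no p is given for it there and its call is not read. Igf2 went from 73.1 ± 21.9 to 1.6 ± 0.363 CPM in females (log2 fold change -5.37, edgeR adjusted p = 2.86e-06) and from 65.1 ± 12.6 to 9.27 ± 5.86 CPM in males (-2.69, adjusted p = 0.00246). Cd44, an adhesion receptor, rose from 165 ± 13.4 to 336 ± 42.4 CPM and from 157 ± 3.0 to 317 ± 30.4 CPM (edgeR adjusted p = 7.5e-05 and 5.41e-05), and Btrc rose by 0.72 and 0.92 on the log2 scale (adjusted p = 0.00268 and 0.00612).

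Imprinted genes of early growth, which include Igf2 and H19, were mostly lower at 65 weeks. Of 11 tested, 10 were called lower in females and 9 in males and none higher, with median log2 fold changes of -4.29 and -3.99. Mest went in females from 129 ± 41.0 to 0.632 ± 0.222 CPM and in males from 176 ± 42.0 to 1.13 ± 0.782 CPM (edgeR adjusted p = 1.95e-06 and 1.86e-05). Slc38a4, an amino acid transporter, went from 9.87 ± 2.05 and 12.4 ± 2.27 CPM in young females and males to 0 counts in all 6 old libraries. At 65 weeks 9 genes of the list passed the filter. The rest of those tested with age, Slc38a4 among them, passed only through the young libraries. Within 1 sex the same held for Dlk1 in females and H19 in males. Nothing is read from these calls.

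Markers of other cell types moved with age in the same libraries. All 16 endothelial markers were called lower in both sexes (median log2 fold change -4.22 in females and -4.51 in males), as were all 10 osteoblast markers (-5.46 and -4.93), all 8 megakaryocyte markers (-2.59 and -3.04) and 11 of 12 chondrocyte markers (-4.93 and -5.34). At 65 weeks only 3 of the 12 chondrocyte markers and 15 of the 16 endothelial markers passed the filter. The rest were tested with age through the young libraries. So were the osteoblast markers Bglap in both sexes and Sp7 and Dmp1 in females. Nothing is read from the calls of these genes or from the chondrocyte and osteoblast medians. The summed chondrocyte level was 407 to 680 CPM at 2 weeks and 6.16 to 12.9 CPM at 65 weeks, with Col10a1 at 0 in old females and Col9a1 at 0 in old males. Osteoblast markers summed to 7090 to 10400 CPM at 2 weeks and 173 to 359 CPM at 65 weeks. The falls of Igf2bp1, Igf2bp2, Igf2bp3 and Hmga2 thus stood beside falls of bone, cartilage and endothelial markers. In such bulk samples, fewer cells of a type and less RNA per cell cannot be told apart, and the part of these cell types in the members' values was not tested.

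Markers that rose stood beside Arid3a and Lin28a. Of the 13 neutrophil markers, 9 were called higher and 1 lower in females, and 12 higher in males (median log2 fold change 1.21 and 2.36). Of the 11 early B cell markers, 5 were higher and 2 lower in females and 5 higher and 4 lower in males (-0.22 and -0.49), and of the 9 plasma cell markers 7 were higher and 1 lower in females and 6 higher and 2 lower in males (4.12 and 4.02). The plasma cell sum was 753 to 843 CPM at 2 weeks and 12300 to 26900 CPM at 65 weeks. At 2 weeks 8 of these 9 markers passed the filter, so the remaining marker was tested with age through the old libraries. Monocyte and macrophage markers were higher in 9 of 11 in females and in 6 of 11, with 1 lower, in males (0.85 and 0.55). T and NK cell markers were higher in 9 of 10 and in 7 of 10, with 1 lower, respectively (1.39 and 1.44). Among them, Cd3e passed the filter in males only through the old libraries, so its call there is not read. Erythroid markers were higher in 3 and 4 of 11 (0.37 and 0.50), and none was lower. Stem and progenitor markers were mixed, with 5 lower and 4 higher of 12 in females and 6 lower and 1 higher in males (-0.25 and -0.57). Genes of the cell cycle were mostly not called, with 1 of 16 lower in females and 3 of 16 higher in males (0.10 and 0.42). The part of these cells in the members' values was not tested.

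**Figure D5:**
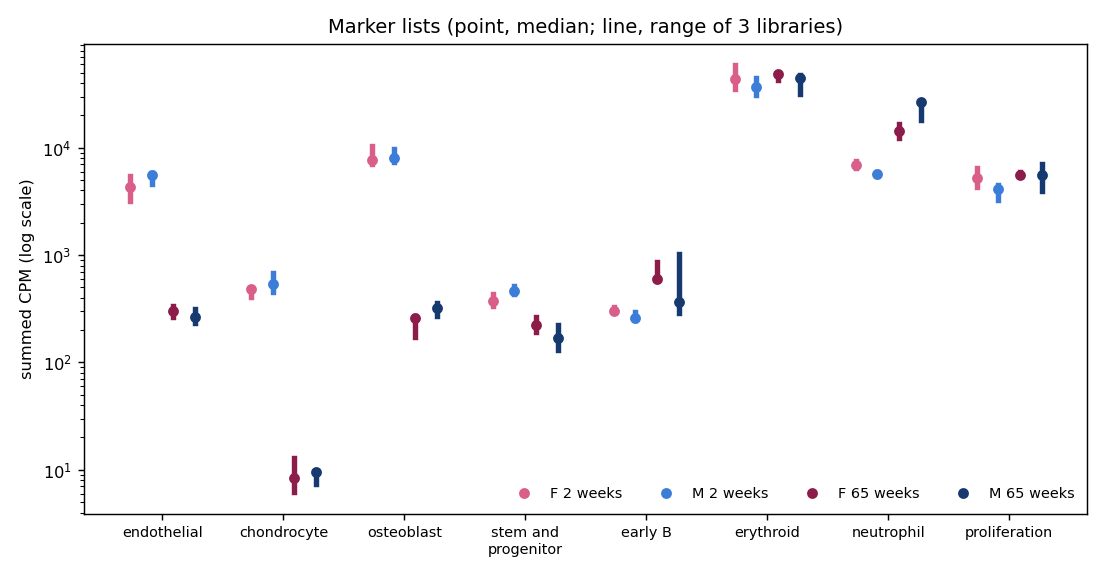
Summed CPM of 8 marker lists on a log axis, by group, with the point at the median and the line over the range of 3 libraries. Endothelial, chondrocyte and osteoblast sums are lower in the old groups, while neutrophil sums are higher.

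The genes whose levels were most alike over the 12 libraries were found by Pearson's r of log2(CPM + 0.5) among protein-coding genes with a mean of at least 1 CPM. The libraries fall into 2 ages, so a high r mainly says that a gene differed between ages, and it is given as a description. For Igf2bp3 the nearest were Ppic, Panx3 and Col11a1 (r = 0.996), and 1790 genes had r of at least 0.95. For Igf2bp2 they were Col5a3, Gpx7 and Sema3a (r = 0.996), with 1829 such genes, and for Igf2bp1 Gabrg3, Notum and Rtkn (r = 0.988), with 1419. For Hmga2 they were Mn1, Pkd2 and Wdr73 (r = 0.989, 0.988 and 0.987), with 525. Arid3a was nearest to Eloa, Upf2 and Ppp1r9b (r = 0.993, 0.993 and 0.992), with 331. Hmga1 (Srgap3, Ddx52 and Aars2, r = 0.926, 0.918 and 0.917) and Lin28b (Jkamp, Rplp2 and Cnpy4, r = 0.947, 0.931 and 0.921) had no gene at 0.95, and the Lin28b values rest on 0 to 10 counts per library.

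The genes lie apart in the genome (GRCm39, GENCODE M39), although Lin28b (ENSMUSG00000063804, chr10:45252646-45362557, minus strand), Arid3a (ENSMUSG00000019564, chr10:79762533-79790852, plus) and Hmga2 (ENSMUSG00000056758, chr10:120197173-120313095, minus) share a chromosome. Igf2bp1 (ENSMUSG00000013415) is at chr11:95847989-95896911 on the minus strand, Igf2bp2 (ENSMUSG00000033581) at chr16:21877759-21982499 (minus), Igf2bp3 (ENSMUSG00000029814) at chr6:49062144-49192447 (minus) and Hmga1 (ENSMUSG00000046711) at chr17:27775449-27782648 (plus).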

How the data were processed

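RNA of cells labelled as BECs was sequenced with paired-end reads in 12 libraries, which were assigned to 4 groups by the sex and age in their labels. The authors deposited raw counts per gene, not normalised, by Ensembl ID. The methods of the study describe alignment to GRCm39 with STAR and counting with featureCounts, whereas the submitters' processing notes name TopHat2, HTSeq and mm9. This was not resolved, and the highest Ensembl ID number in the table, 93789, is below those of 47216 genes of GENCODE M39, which points to an older annotation. Of the 37620 IDs, 31052 were found in GENCODE M39 and carried 99.287% of the counts. The use of strand and of reads that map to several places is not stated. The labels name both polyadenylated RNA and a kit for total RNA. Per the methods of the study, RNA quality decided which samples of a set were made into libraries.

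In edgeR 4.0.16, run in R 4.3.3, genes were filtered by filterByExpr (minimum count 10), scaled by TMM and tested by the quasi-likelihood F test, and p-values were adjusted by Benjamini-Hochberg over all genes tested (threshold 0.05). Each comparison used the 6 libraries of its groups, and the interaction all 12. The standard error of a log2 fold change is its size divided by the square root of F. The precision of each count is set by library totals of at least 26044743. Alternatives were DESeq2 1.42.0, other scalings, filters and dispersion, thinning, 1 model of all 12 libraries, a block for the replicate number, and each library left out. Seed matches used the longest 3′ UTR, a choice made after an isoform of Hmga2 with a short UTR was seen. Scripts were tested on simulated data.

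All 7 genes and their paralogues are named, and from each other list of genes related to them up to 2 with the largest rise and 2 with the largest fall among those called in both age comparisons. Markers of cell types are given by their counts. Tut4, Lamb2, Huwe1, Mir99ahg, Myc, Trim71, Dlk1, Emcn, Col10a1, Col9a1, Bglap, Sp7, Dmp1 and Cd3e were named outside this rule after their values were seen. The 7 genes and the lists were chosen with earlier results of these data known. Of the listed genes, Hmga2-ps1, Mirlet7bhg, Vpreb1, Vpreb2 and Ahsp had no match in the table.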

Additional observations from a re-analysis of the deposited data

How the results depend on the processing

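Igf2bp1 and Igf2bp3, and Hmga2 in males, passed the filter with age only through the 2-week libraries. Nothing is therefore read from a steady number of calls with age. Over all genes, 9030 were called in females (7434 to 8757 with each library left out) and 8298 in males (6450 to 9564). The number of the 7 genes called with age moved by less than 1.5 times under every alternative that was run. It was 6 in females (5 with a minimum count of 30 or a replicate block, and 5 to 6 with each library left out) and 5 in males (4 with a minimum count of 30, and 4 to 5 with each library left out). Between sexes at 2 weeks it was 0 by edgeR and 1 by DESeq2. In the interaction it was 0 by edgeR, 1 by DESeq2 and from 0 to 1 with each library left out, the 1 coming without male 65-week replicate 3. The gene was Arid3a each time. Of 446 alternative log2 fold changes of the 7 genes, 408 kept their direction and side of the threshold, 28 changed sign, 7 lost a call and 3 gained one. Of the list counts, 60 moved by over 1.5 times and 1020 did not. Over all genes, the calls between sexes rose from 5 to 453 at 2 weeks and from 6 to 398 at 65 weeks with DESeq2, and from 1 to 394 in the interaction. At 65 weeks they were 254 with 1 model of all 12 libraries and 105 without a filter.

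No value that changed sign was called. With library totals alone the Igf2bp2 log2 fold change was 0.0067 between sexes at 2 weeks, 0.0109 at 65 weeks and 0.00407 in the interaction. With 1 model of all 12 libraries it was 0.0234 at 2 weeks and 0.00808 at 65 weeks, and after thinning it was 0.0852 at 2 weeks. Hmga1 between sexes at 65 weeks was -0.000525 without a filter. The cause was not tested.

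With each library left out, Hmga1 with age in males ran from -0.197 to 0.00589. Between sexes at 2 weeks Igf2bp1 ran from -0.445 to 0.0909 and Igf2bp2 from -0.0976 to 0.11. At 65 weeks Igf2bp2 ran from -0.0803 to 0.138, Hmga1 from -0.106 to 0.0863, Hmga2 from -1.42 to 0.291 and Arid3b from -0.0289 to 0.198. In the interaction Igf2bp1 ran from -0.135 to 0.407, Igf2bp2 from -0.158 to 0.116 and Hmga2 from -1.34 to 0.384.

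The replicate numbers did not pair the libraries, since correlations of same-numbered deviations ran from -0.355 to 0.14. With the number as a block, Hmga1 in females was not called (-0.256, edgeR adjusted p = 0.0607), and Hmga1 between sexes at 65 weeks was -0.00613. A gene with fewer than 3 counts in a library cannot be ranked between libraries, which limits Lin28b, Igf2bp1 and Igf2bp3 at 65 weeks.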
